A study of Maylandia zebra with 2 samples.

Results

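*cd74a*, ENSMZEG00005013049 in the deposited feature list, is 1 of 28622 features counted in single nuclei of the oral lamina of the cichlid fish *Maylandia zebra*. It was found by its name, which 1 feature carries, and its UMIs (molecular identifiers, each marking a captured RNA molecule) were read per cell class and cluster of the authors. The gene was chosen by its UMI counts, which are uneven across these clusters, and the clusters were built from expression. Its levels are therefore a description without a test. Over the 1296 nuclei that the authors kept, 663 UMIs of *cd74a* were counted among 1423040, a level of 466 CPM (431–503), the UMIs of a feature per 1000000 UMIs of all features in the same nuclei. At least 1 UMI was present in 300 nuclei, or 23.1%, and these are called positive here.

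The samples were soft tissue beside the replacement teeth of the upper jaw and of the lower jaw, 1 library each, from which nuclei were sorted by DAPI staining. The labels give no treatment, genotype or age. Both jaws are in 1 matrix whose barcodes end in suffix 1 or 2, and no source used here says which jaw a suffix stands for, so the 2 suffix sets stand side by side as they are. All nuclei form 1 sample with no replicate. Intervals are 95% and cover counting error only, and no p-value is given.

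CD74, the invariant chain, is the chaperone of MHC class II molecules in jawed vertebrates. It holds the peptide groove of a new class II molecule closed, steers the complex to endosomes, and is there cut down by cathepsins and signal peptide peptidase-like enzymes so that a peptide can be loaded. Dendritic cells, B cells and macrophages make it constantly, and epithelia of mammals can make it under interferon gamma through the class II transactivator. At the cell surface mammalian CD74 also binds the cytokine MIF.

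Kept nuclei had a median of 832.5 UMIs, from 367 to 5326, and the 754 nuclei of suffix 1 were shallower (median 753 UMIs) than the 542 of suffix 2 (median 919). A single barcode sequence occurred with both suffixes, in a nucleus of cluster 4 and in one of cluster 6, and neither held *cd74a*. The 18 other symbols listed for MHC class II chains and the invariant chain, *cd74b* among them, matched 0 feature names, and 13504 features carry no symbol, so the class II molecules themselves were not analysed here.

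*cd74a* lay mostly in 3 of the 12 clusters. Epithelial cluster 4, Pigmented cluster 5 and Immune cluster 8 together made up 21.4% of the kept nuclei and held 434 of the 663 UMIs, or 65.5%. Their joint level was 1499 CPM (1361–1647), against 202 CPM (177–230) in the 1019 nuclei of the other 9 clusters. Cluster 4 had 218 UMIs in 129 nuclei, a level of 1599 CPM (1394–1826). Cluster 5 had 155 UMIs in 98 nuclei, a level of 1696 CPM (1439–1985). The intervals of these 2 clusters overlap, and the ratio of cluster 4 to cluster 5 was 0.943 (0.764–1.17). Cluster 8 followed with 61 UMIs in 50 nuclei, at 987 CPM (755–1268), below cluster 4 with no overlap of the intervals.

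The other 9 clusters lay well under these. Immune cluster 2 had 352 CPM (268–454), Mesenchymal cluster 6 had 290 CPM (199–410) and Immature TB cluster 11 had 265 CPM (106–545), TB being the authors' abbreviation. Epithelial clusters 7 and 3 had 240 CPM (140–385) and 239 CPM (155–353), and Epithelial cluster 0 had 152 CPM (118–192). Mature TB cluster 10 had 119 CPM (24.5–348), Epithelial cluster 1 had 103 CPM (57.4–169), and Immune cluster 9 had 1 UMI, or 46.0 CPM (1.17–256). From cluster 2 downward each interval overlaps that of the next cluster in the order, so this part of the order was not resolved at this depth.

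By class the order was different from that by cluster. The Pigmented class is cluster 5 alone. The Immune class had 482 CPM (400–576) and the Epithelial class 376 CPM (337–417), averages over clusters that differ strongly. Cluster 4 stood 9.85-fold (7.88–12.4) above the 679 nuclei of the other Epithelial clusters, which had 162 CPM (135–193). Cluster 8 stood 3.11-fold (2.14–4.52) above the other Immune clusters, which had 317 CPM (242–408). Cluster 5 stood 4.45-fold (3.69–5.33) above all other kept nuclei, which had 381 CPM.

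**Figure D1:**
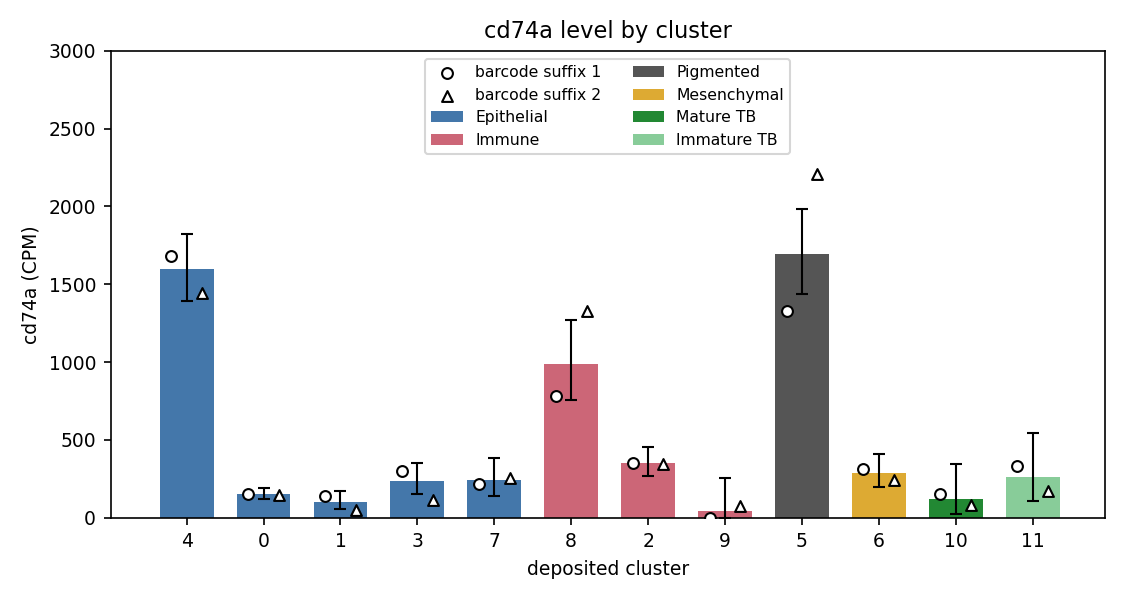
*cd74a* level (y axis, CPM) in each deposited cluster (x axis), with bars coloured by class, exact Poisson 95% intervals, and the values of the barcode suffix sets as open circles (suffix 1) and triangles (suffix 2). Cluster 4 (1599 CPM), cluster 5 (1696 CPM) and cluster 8 (987 CPM) stand above the other 9 clusters, of which the highest is cluster 2 (352 CPM).

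The suffix sets gave the same 3 clusters but not the same order. Cluster 4 had 1679 CPM (1422–1968) in suffix 1 and 1442 CPM (1115–1834) in suffix 2. Cluster 5 had 1330 CPM (1039–1678) in suffix 1 and 2209 CPM (1762–2735) in suffix 2, intervals that do not overlap. Cluster 8 had 780 CPM (527–1114) in suffix 1 and 1327 CPM (902–1884) in suffix 2. The ratio of cluster 4 to cluster 5 was 1.26 (0.946–1.70) in suffix 1 and 0.653 (0.466–0.912) in suffix 2, so which of them was the higher depends on the suffix set.

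Single nuclei show how the counts were spread. Of the 300 positive nuclei, 165 had 1 UMI, 135 had 2 or more and 67 had 3 or more. In cluster 4 the 64 positive nuclei held from 1 to 23 UMIs, and 15 of them held at least 5. The highest 4 held 23, 22, 13 and 13 UMIs, together 71 of the 218 UMIs of the cluster, and 3 of these nuclei were of suffix 1 and 1 of suffix 2. In cluster 5 a single nucleus of suffix 2 held 36 UMIs of *cd74a* among its 927 UMIs, and the next highest held 5. Without it cluster 5 had 119 UMIs, or 1315 CPM, and its ratio to all other kept nuclei was 3.45 (2.80–4.22). The suffix 2 value of cluster 5 was then 1294 CPM, close to the 1330 CPM of suffix 1. The lead of cluster 5 in CPM thus rested on that nucleus: without it the ratio of cluster 4 to cluster 5 was 1.22 (0.968–1.53). Cluster 4 kept its own highest nucleus in that ratio. With the highest nucleus of each left out, cluster 4 had 1445 CPM and cluster 5 had 1315 CPM. In cluster 8 the highest nucleus held 9 UMIs. Cluster 4 without its own highest nucleus had 1445 CPM, and its ratio to the other Epithelial clusters was 8.90 (7.08–11.2).

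**Figure D2:**
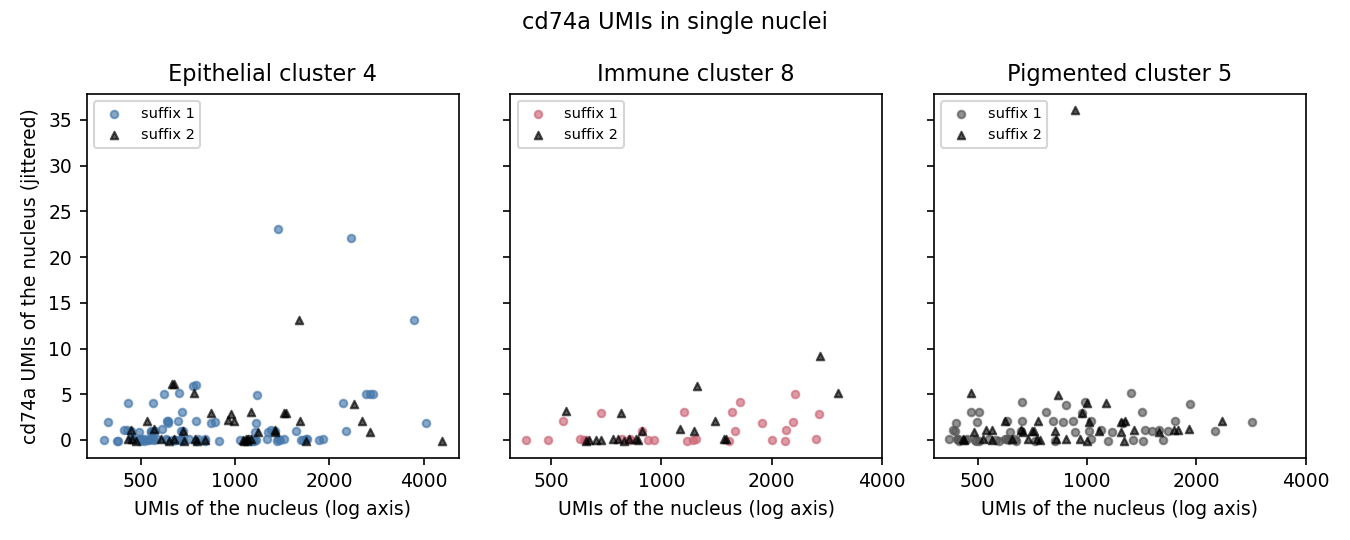
*cd74a* UMIs of each nucleus (y axis, moved by up to 0.15 UMI at random so that points can be told apart) against its total UMIs (x axis, log scale) in Epithelial cluster 4, Immune cluster 8 and Pigmented cluster 5, with circles for suffix 1 and triangles for suffix 2. Cluster 4 has 4 nuclei at 13 UMIs or more, cluster 8 reaches 9 UMIs, and cluster 5 has 1 nucleus at 36 UMIs with all others at 5 UMIs or fewer.

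Deeper nuclei show a UMI more often, so the share of positive nuclei was also read at equal depth. At full depth 49.6% (40.7–58.5, Clopper-Pearson) of cluster 4, 62.2% (51.9–71.8) of cluster 5 and 42.0% (28.2–56.8) of cluster 8 were positive. The median positive nucleus of cluster 4 had 841 UMIs, against 748 in its negative nuclei. In cluster 5 these medians were 968 UMIs in positive and 610 in negative nuclei, and in cluster 8 they were 1401 and 821 UMIs. After thinning each nucleus to 500 UMIs, 46 of 111 nuclei of cluster 4 were positive, or 41.4% (32.2–51.2), with 18 shallower nuclei left out. In cluster 5 they were 37 of 81, or 45.7% (34.6–57.1), with 17 left out. In cluster 8 they were 12 of 48, or 25% (13.6–39.6), with 2 left out. The intervals of clusters 4 and 5 overlap widely, and that of cluster 8 overlaps both.

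Mesenchymal nuclei, a class that is not known for class II presentation, give the share to read the others against. The 85 nuclei of this class were not free of macrophage genes, with 20 UMIs each of *stab1* and *slc43a2a*. Their share is therefore a reference and no background level. The median depth was 753 UMIs in cluster 4 and 810 in cluster 5, against 986 in the Mesenchymal nuclei. Of the Mesenchymal nuclei 21.2% (13.1–31.4) were positive at full depth and 5 of 77, or 6.49% (2.14–14.5), at 500 UMIs. At 500 UMIs Epithelial clusters 0, 1, 3 and 7 lay between 5.06% and 8.49%, inside the Mesenchymal interval. At 800 UMIs they had 9.69% (6.17–14.3), 2.22% (0.0562–11.8), 5% (0.611–16.9) and 8.77% (2.91–19.3), all below the Mesenchymal share at that depth, with intervals that overlap its interval. No order among these 4 clusters is read from such shares. Cluster 0 was the deepest of these, and its share was 20.1% (15.1–25.8) at full depth but 7.69% (4.62–11.9) at 500 UMIs. Immune cluster 2 had 26 of 150 positive nuclei at 500 UMIs, or 17.3% (11.6–24.4), an interval that overlaps the Mesenchymal one. Cluster 9 had 0 of 25, which allows a share of up to 13.7% of nuclei with a UMI. At 800 UMIs, which leaves out more nuclei, the share was 43.5% (31.0–56.7) in cluster 4, 60% (45.2–73.6) in cluster 5 and 36.4% (20.4–54.9) in cluster 8, against 17.9% (8.91–30.4) in the Mesenchymal cluster. Clusters 4 and 5 thus stood above the Mesenchymal interval at both depths, while the interval of cluster 8 overlapped it at both.

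**Figure D3:**
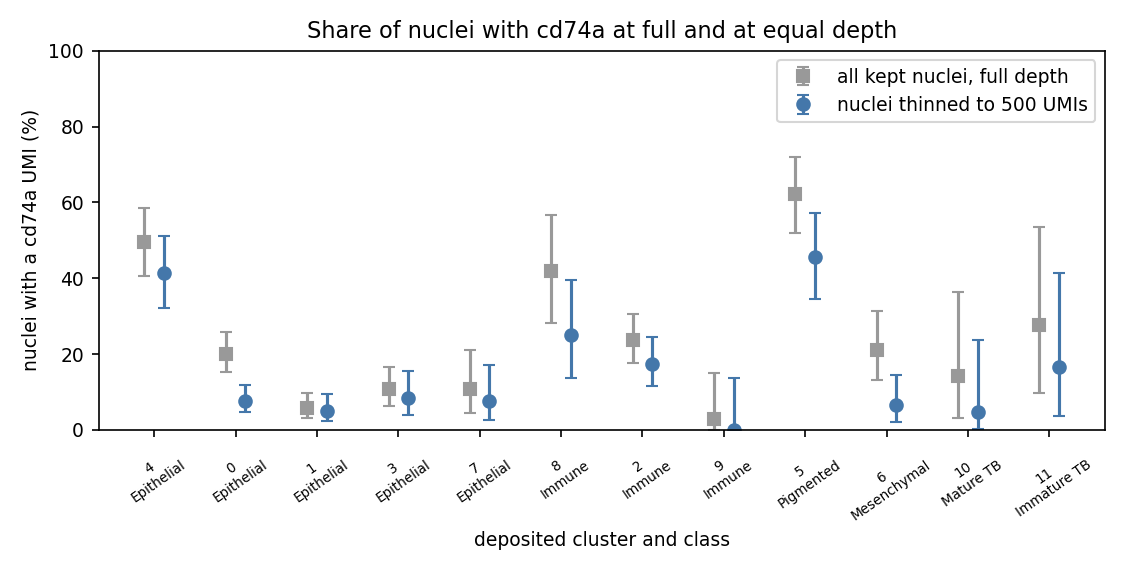
Share of nuclei with at least 1 *cd74a* UMI (y axis, percent) by deposited cluster and class (x axis), at full depth (grey squares) and after thinning to 500 UMIs (blue circles), with Clopper-Pearson 95% intervals. At 500 UMIs the shares of cluster 4 (41.4%) and cluster 5 (45.7%) are the highest, above cluster 8 (25%) and cluster 2 (17.3%), while Mesenchymal cluster 6 is at 6.49%.

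The names of the clusters with much *cd74a* were set against marker lists. Pigmented cluster 5 had *mitfa*, the regulator of pigment cell fate, at 570 CPM against 12.8 CPM in all other kept nuclei, a ratio of 44.6 (25.4–82.3). The melanin gene *dct* had 1 UMI there and *oca2*, a melanosome transporter gene, had 2. The iridophore genes *ltk* and *pnp4a* had 0 and 1 UMI. Of all features, 16.1% were at least 2-fold higher in cluster 5 than in the rest, while 14.6% were lower by as much. Of the 11 measured members of the macrophage list, 8 were at least 2-fold higher and 0 lower, with a median log2 ratio of 4.44 against 0.00 over all features. *stab1*, a scavenger receptor gene, had 237 UMIs there, a ratio of 48.0 (36.7–63.4), and *mrc1b* (1 of many), a mannose receptor gene, had 92 UMIs, a ratio of 43.3 (28.5–67.3). *slc43a2a*, an amino acid transporter gene, and *ncf4*, an oxidase subunit gene of phagocytes, had ratios of 50.8 (32.2–82.7) and 29.7 (18.7–48.0). *csf1ra*, the receptor gene that macrophages share with yellow pigment cells, had a ratio of 37.3 (16.6–91.5). Of the 16 measured members of the antigen presenting cell list, 10 were at least 2-fold higher and 3 lower, with *hck*, a myeloid kinase gene, at 11.3 (7.40–17.3) and *zbtb46*, a regulator of dendritic cells in mice, at 10.2 (6.07–17.0). Summed, that list had 2221 CPM (1926–2549) in cluster 5, against 1853 CPM (1549–2199) in Epithelial cluster 7 and 1818 CPM (1697–1945) in cluster 0. The T and NK cell list summed to 4858 CPM (4416–5331) in cluster 5, against 6958 CPM in Immune cluster 2 and 4051 CPM (3249–4991) in cluster 9. Its member *runx3* had 207 UMIs in the positive and 68 in the negative nuclei of cluster 5, most of the 444 UMIs of the list there. Cluster 5 thus carries markers of phagocytes beside *mitfa*, and its high sum of the T and NK cell list rests mostly on *runx3*. It is called by the authors' name and number here. A feature counts as measured in a comparison from 10 UMIs over both sides.

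Cluster 4 carried markers of the upper, barrier-forming layers of epithelium. Of all features, 18.0% were at least 2-fold higher in cluster 4 than in the other Epithelial clusters, while 19.6% were lower by as much. On the superficial barrier list 9 of 20 measured members were higher and 2 lower, with a median log2 ratio of 0.76 against −0.03 over all features. Summed, that list had 11414 CPM (10854–11996) in cluster 4 and 9140 CPM (8570–9739) in Epithelial cluster 3. Epithelial clusters 0, 1 and 7 had 6268, 5327 and 4555 CPM. *evpla*, which codes for envoplakin of the cell envelope, had 2138 CPM against 144 CPM, a ratio of 14.8 (11.9–18.6). On the basal epithelium list 1 of 12 was higher and 10 were lower, with a median of −1.53, and *krt5*, the basal keratin gene, had a ratio of 0.434 (0.405–0.465). *mpx*, known in zebrafish as the myeloperoxidase gene of neutrophils, had 120 UMIs in 17.8% of the nuclei of cluster 4, at 882 CPM against 10.2 CPM in the other Epithelial clusters. The 5 other neutrophil features had from 1 to 6 UMIs over all kept nuclei and were not measured. *cyba*, a subunit gene of the phagocyte NADPH oxidase, had a ratio of 18.9 (7.84–52.1), and *cybb*, the partner that defines that enzyme, had 2 UMIs. The macrophage list as a whole summed to 551 CPM in cluster 4 and 529 CPM in the other Epithelial clusters, with *spi1b*, the regulator of myeloid fate, and *ncf4* at 1 UMI each in cluster 4.

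Other genes of the invariant chain's own pathway were read next. Its regulators include the RFX and NF-Y factors, which bind class II promoters, and the KDM6B demethylases. Of 6 measured members 1 was at least 2-fold higher and 1 lower in cluster 4 than in the other Epithelial clusters, close to the shares over all features. *rfxap* had 5 UMIs there, a ratio of 3.59 (0.925–12.5), and *nfyba* had 1, a ratio of 0.302 (0.00728–1.90). *kdm6ba* was the most counted, with 36 UMIs at 264 CPM against 141 CPM, a ratio of 1.88 (1.25–2.76). *CREB1*, *nfyc* and *kdm6bb* had ratios of 1.80 (0.515–5.13), 0.750 (0.262–1.76) and 0.655 (0.289–1.31). In cluster 5 against all other kept nuclei 1 of 6 was higher, *nfyc* at 2.76-fold (1.44–4.93), and 1 was lower, *CREB1* with 1 UMI at 0.429 (0.0106–2.56). The 6 measured regulators showed no common direction with *cd74a* in either cluster. *ciita*, the class II transactivator gene, and *rfx5*, *rfxank* and *nfya* were also listed but were not among the measured members. Nothing is read on these genes.

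Proteases and sorting genes that handle the invariant chain in endosomes were measured in both clusters. In cluster 4 against the other Epithelial clusters 9 of 18 measured members were at least 2-fold higher and 3 lower, with a median log2 ratio of 1.02, where 18.0% of all features were higher. *march8*, a ubiquitin ligase gene that turns over class II molecules, had the most UMIs, 134, at 985 CPM against 438 CPM, a ratio of 2.25 (1.82–2.75). *cltca* (1 of many), which codes for the clathrin heavy chain, had a ratio of 1.58 (1.17–2.12). *ctsl.1* (1 of many), which codes for cathepsin L, had 16 UMIs, at 118 CPM against 8.95 CPM, a ratio of 13.1 (5.11–37.8). *ifi30*, which codes for the thiol reductase GILT that opens disulphide bonds of antigens in endosomes, also had 16 UMIs, at 118 CPM against 11.5 CPM, a ratio of 10.2 (4.25–26.2). *ctsz* (1 of many), *ctsd* and *ctsba*, which code for cathepsins, had ratios of 5.34 (2.31–12.2), 4.93 (1.37–17.1) and 2.63 (1.36–4.87). *CTSS* (1 of many), which codes for the cathepsin best known for the last cut of the invariant chain, had 7 UMIs and a ratio of 2.87 (0.982–7.61). *SPPL2A*, the gene of the peptidase that removes the membrane stub of the chain, had a ratio of 2.30 (1.55–3.35). The lysosomal cysteine protease gene *lgmn* had a ratio of 1.81 (1.18–2.69).

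In cluster 5 other members led the same list. Against all other kept nuclei 12 of 20 measured members were at least 2-fold higher and 3 lower, with a median log2 ratio of 1.39, where 16.1% of all features were higher. *march8* and *cltca* (1 of many) had ratios of 1.92 (1.53–2.38) and 1.99 (1.45–2.68). *CTSS* (1 of many) had 42 UMIs at 460 CPM against 42.8 CPM, a ratio of 10.7 (7.04–16.3). *ctsc*, which codes for cathepsin C, had a ratio of 8.98 (3.23–23.4), and *ctsba*, with 49 UMIs, one of 8.72 (5.99–12.6). *lgmn* had 60 UMIs and a ratio of 4.29 (3.16–5.75). *ifi30* had 6 UMIs there, a ratio of 2.74 (0.935–6.63). Of the MIF axis 2 members were measured. *CXCR4*, a receptor gene of MIF beside CD74 in mammals, had a ratio of 8.21 (3.20–19.7) in cluster 5, and *mif* itself had 1 UMI there among 12 in all kept nuclei.

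The MHC class I pathway, which loads peptides from the cytosol, summed to 816 CPM in cluster 4 against 367 CPM in the other Epithelial clusters, and to 395 CPM in cluster 5 against 401 CPM in all other kept nuclei. With *cd74a* in the totals, cluster 4 had 814 CPM (670–981). Epithelial cluster 3 had 526 CPM (397–685) and Immune cluster 8 had 550 CPM (381–769), and both intervals overlap that of cluster 4. Epithelial clusters 0, 1 and 7 had 358 CPM (305–417), 239 CPM (167–333) and 453 CPM (310–639). In cluster 4 against the other Epithelial clusters 7 of 15 measured members were at least 2-fold higher and 1 lower, where 18.0% and 19.6% of all features were, and the median log2 ratio was 0.94. *calr*, the calreticulin chaperone gene, had a ratio of 10.7 (3.96–31.6), and *tap2a* and *tap1*, the peptide transporter genes, had ratios of 9.58 (3.15–32.1) and 3.25 (1.51–6.69). *psme2*, a proteasome activator gene, had a ratio of 5.75 (2.36–14.0), and *tapbp.2*, a gene of the tapasin family that loads class I molecules, one of 2.75 (1.21–5.87). The members with the highest ratios rested on suffix 1. The 13 UMIs of *calr*, which lay in 3.88% of the nuclei of cluster 4, and the 10 of *tap2a* in cluster 4 were all of suffix 1, while suffix 2, with 40 of the 129 nuclei, held 0 of either. *tap1* had 11 UMIs in suffix 1 and 2 in suffix 2, and *psme2* had 9 and 3. In cluster 5 against all other kept nuclei 2 of 17 were at least 2-fold higher and 1 lower, with a median of 0.30. Both counts lay under the 16.1% and 14.6% of all features there. *canx*, the calnexin chaperone gene, had a ratio of 0.901 (0.285–2.19) there and *tap1* one of 0.951 (0.189–2.96).

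By counts at 2-fold, interferon genes lay near the background in cluster 4, while their summed level was higher there. The summed list had 1423 CPM (1230–1638) in cluster 4. Epithelial clusters 0, 1, 3 and 7 had 894 CPM (810–984), 889 CPM (743–1056), 948 CPM (770–1154) and 594 CPM (428–803). In cluster 4 against the other Epithelial clusters 3 of 12 measured members were at least 2-fold higher and 1 lower, where 18.0% and 19.6% of all features were, and the median log2 ratio was 0.37. *ifngr1*, a receptor gene of interferon gamma, had 33 UMIs at 242 CPM against 28.1 CPM, a ratio of 8.62 (4.88–15.5). *irf1b*, a transcription factor gene that interferon gamma induces, had 44 UMIs at 323 CPM against 61.4 CPM, a ratio of 5.27 (3.42–8.10). Both held in each suffix set, at 8.31 (3.86–19.0) in suffix 1 and 8.89 (3.50–22.6) in suffix 2 for *ifngr1*, and at 4.96 (2.85–8.69) and 5.26 (2.43–10.9) for *irf1b*. *jak1*, the kinase gene of the receptor, and *ifngr1l*, a paralogue of *ifngr1*, had ratios of 1.27 (0.859–1.83) and 0.858 (0.528–1.34). *SOCS3* (1 of many), a feedback inhibitor gene, had a ratio of 3.83 (1.54–9.12), while *stat1a*, the main transducer gene, had 4 UMIs and a ratio of 0.697 (0.179–1.96). In cluster 5 against all other kept nuclei 4 of 14 were higher and 2 lower, where 16.1% and 14.6% of all features were. *ifngr1l* had a ratio of 3.51 (2.58–4.70) there, *stat2* one of 4.38 (2.74–6.79) and *irf7* one of 12.8 (3.94–40.3), while *ifngr1* had 1 UMI.

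**Figure D4:**
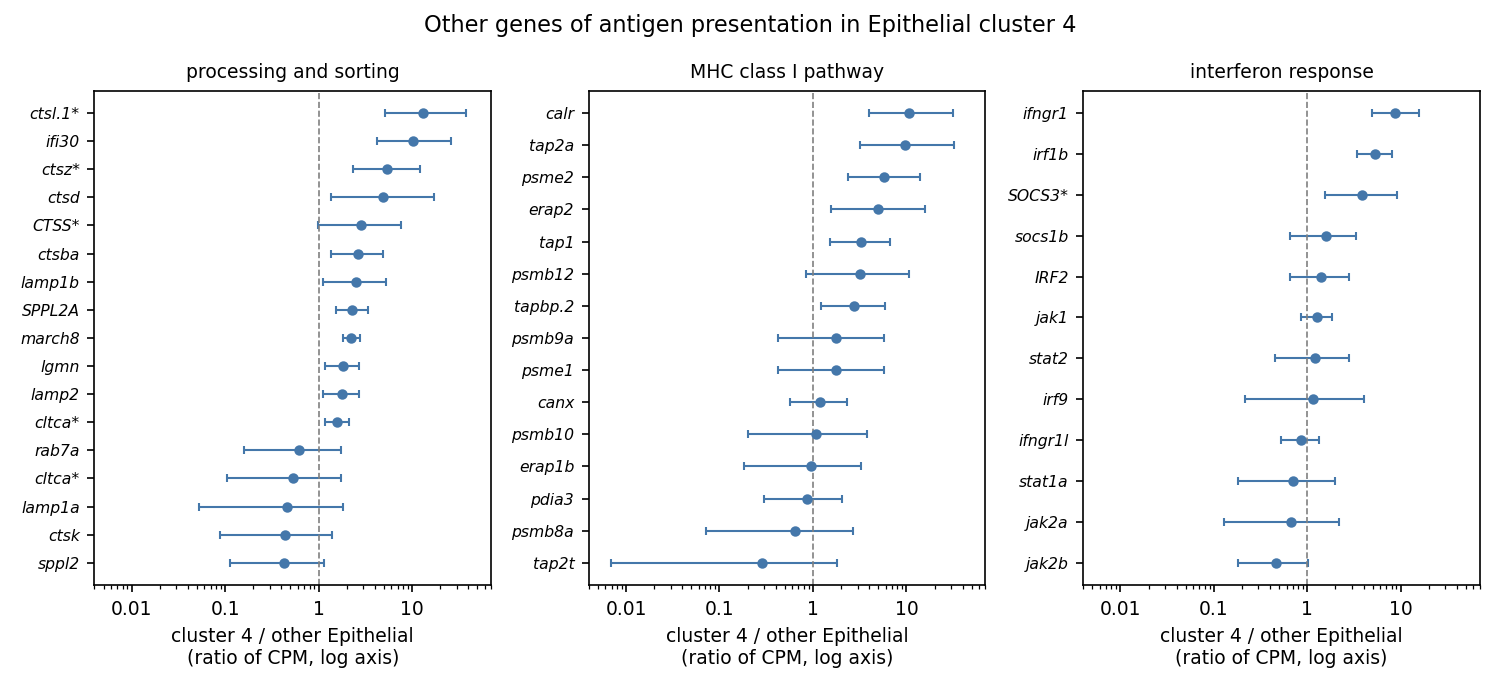
Ratio of CPM between Epithelial cluster 4 and the other Epithelial clusters (x axis, log scale) for the measured members of the lists of invariant chain processing and sorting (ap2m1a, with 0 UMIs in cluster 4, not drawn), the MHC class I pathway and the interferon response, with exact 95% intervals; the dashed line marks 1 and * a feature that the files call 1 of many. *ctsl.1* (13.1), *ifi30* (10.2), *calr* (10.7), *tap2a* (9.58) and *ifngr1* (8.62) lie farthest to the right.

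Cluster 8, the third cluster with much *cd74a*, had few of these partners at 2-fold. Of all features, 14.7% were at least 2-fold higher there than in the other Immune clusters, while 19.7% were lower by as much. Of the 9 measured proteases and sorting genes 0 were at least 2-fold higher and 0 lower, with a median log2 ratio of 0.39 against −0.05 over all features, and *CTSS* (1 of many) had a ratio of 0.968 (0.316–2.52). The most counted, *march8*, had 58 UMIs and a ratio of 1.80 (1.28–2.51), under 2-fold but with an interval above 1. *SPPL2A* and *cltca* (1 of many) had ratios of 1.39 (0.703–2.64) and 0.587 (0.253–1.21). On the T and NK cell list 0 of 12 were higher and 9 lower. On the B cell list 3 of 9 were higher, among them the signalling genes *btk* at 4.09-fold (1.24–14.3) and *blnk* at 2.45-fold (0.841–6.90), and 3 lower, among them *pax5*, the B cell regulator, with 2 UMIs at 0.383 (0.0427–1.63). On the macrophage list 2 of 6 were higher and 1 lower. *foxa3*, a regulator of gut and mucus cells and the 1 measured member of the goblet list, had 20 UMIs in cluster 8 and 0 in the other Immune clusters. With 3 UMIs set in place of the 0 this is 20.4-fold higher. Between the 21 positive and the 29 negative nuclei of cluster 8, 19.8% of 1517 features were at least 2-fold higher, while 14.7% were lower by as much. Of 3 measured proteases and sorting genes 0 were higher and 1 lower, while 5 of 10 members of the epithelium list were higher and 1 lower, with a summed ratio of 2.15 (1.82–2.56). The part of depth in that ratio was not tested.

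The positive nuclei of clusters 4 and 5 were then set against each other. The 64 positive nuclei of cluster 4 held 75530 UMIs in all and the 61 of cluster 5 held 64718. Of 3377 features with at least 10 UMIs in the pair, 28.0% were at least 2-fold higher in the positive nuclei of cluster 4, while 26.0% were lower by as much, with a median log2 ratio of −0.06. On the superficial barrier list 15 of 17 measured members were higher and 0 lower, with a median of 2.26, and the summed list had a ratio of 4.75 (4.02–5.63). *evpla* had 193 UMIs in the positive nuclei of cluster 4 against 10 in those of cluster 5, a ratio of 16.5 (8.80–35.1). *ppl*, the gene of its partner periplakin, had a ratio of 9.76 (5.53–18.8), and *cldn7b*, a tight junction gene, one of 16.3 (4.21–139). *anxa1a*, an annexin gene, and *jupa*, the plakoglobin gene of cell junctions, had ratios of 3.47 (2.13–5.89) and 2.00 (1.26–3.27).

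The macrophage list lay the other way. Of its 10 measured members 1 was at least 2-fold higher in the positive nuclei of cluster 4 and 8 were lower, and the summed ratio was 0.0803 (0.0566–0.111). The median log2 ratio was −4.38, or −3.46 with 3 UMIs set in place of the 0 of 3 members. *stab1* had 9 UMIs in the positive nuclei of cluster 4 against 155 in those of cluster 5, a ratio of 0.0498 (0.0223–0.0970). *slc43a2a* had 0 against 61, and *spi1b* had 0 against 18. *cyba* was the member that was higher, at 4.57 (1.31–24.5). Of the antigen presenting cell list 0 of 7 were higher and 5 lower, with *hck* at 0.0536 (0.00622–0.210) and *irf8*, a regulator of dendritic cells and macrophages, at 0 UMIs against 10. Most measured members of these 2 lists thus had lower levels in the positive nuclei of cluster 4. Beside *cyba*, the members that were not at least 2-fold lower were *ccl25b*, *nfkb2* and *grnb*. Their ratios were 1.14 (0.442–3.07), 0.572 (0.203–1.52) and 0.714 (0.172–2.81). *mpx* of the neutrophil list had 70 UMIs there against 5, a ratio of 12 (4.91–38.1). *spi1b*, *slc43a2a* and *irf8* passed the minimum of 10 UMIs in the pair through cluster 5 alone. The macrophage and antigen presenting cell lists were also high in cluster 5 as a whole, as the barrier list was in cluster 4. The counts on these lists therefore restate how the 2 clusters differ and are no test of their *cd74a*-positive nuclei.

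The antigen pathway genes were also set beside each other in the 2 sets of positive nuclei, where 28.0% of all features were higher and 26.0% lower. Of 12 measured proteases and sorting genes 2 were at least 2-fold higher in the positive nuclei of cluster 4 and 3 lower, both near or under those shares, with a median log2 ratio of −0.29. *march8*, *cltca* (1 of many) and *SPPL2A* had ratios of 0.777 (0.551–1.09), 0.913 (0.542–1.54) and 0.730 (0.400–1.32). *ifi30* had 16 UMIs against 5, a ratio of 2.74 (0.960–9.57), and *lamp1b*, a lysosome membrane gene, had 10 against 0. With 3 UMIs set in place of the 0, *lamp1b* was 2.86-fold higher, and the interval of its ratio starts at 1.92. *CTSS* (1 of many) had 6 against 34, a ratio of 0.151 (0.0519–0.365), *lgmn* 21 against 47, a ratio of 0.383 (0.217–0.654), and *ctsba* 14 against 29, a ratio of 0.414 (0.202–0.809). Class I genes had 3 of 5 measured members higher and 0 lower, and the summed list had a ratio of 2.68 (1.66–4.50), with 9 UMIs of *tap1* and 9 of *calr* against 2 and 2. Both had a ratio of 3.86 (0.798–36.7), and *tapbp.2* one of 3.43 (0.684–33.1), so the intervals of all 3 include 1. The 9 UMIs of *calr* lay in 4.69% of the positive nuclei of cluster 4. Of 7 interferon genes 2 were higher, near that share, and 3 lower. *ifngr1* had 17 UMIs against 1, a ratio of 14.6 (2.28–609), and *irf1b* 36 against 8, a ratio of 3.86 (1.76–9.61). The paralogue *ifngr1l* had 17 against 45, a ratio of 0.324 (0.174–0.577), and *stat2* 3 against 17, a ratio of 0.151 (0.0284–0.523).

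**Figure D5:**
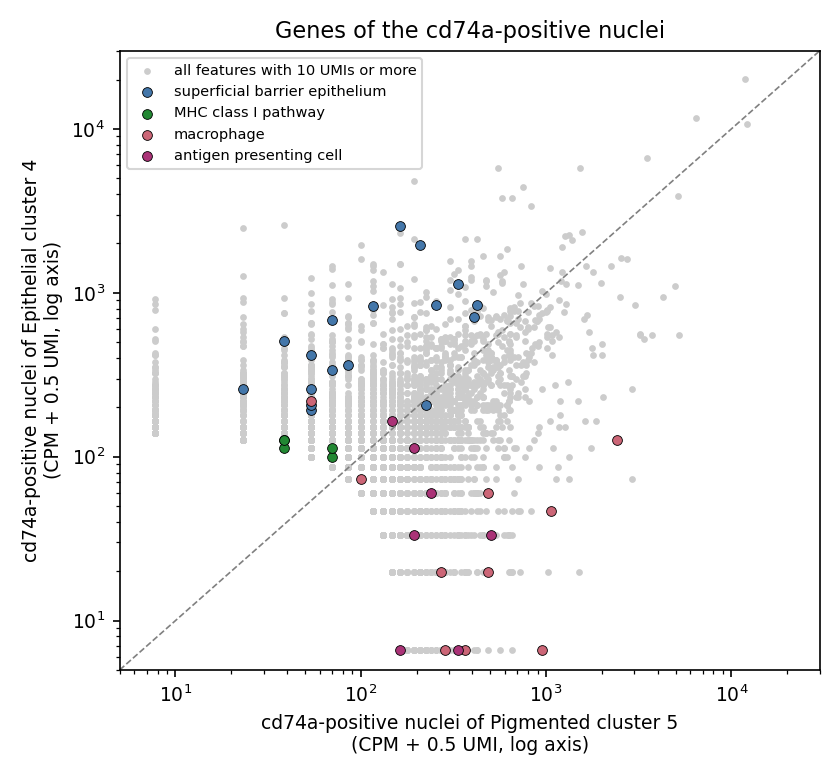
Level of each of 3377 features in the 64 *cd74a*-positive nuclei of Epithelial cluster 4 (y axis) and in the 61 of Pigmented cluster 5 (x axis), in CPM after adding 0.5 UMI, both axes on a log scale, with members of 4 lists coloured and the dashed line marking equal levels. Most members of the superficial barrier list lie above the line (15 of 17 at least 2-fold higher in cluster 4) and most of the macrophage list below it (8 of 10 at least 2-fold lower).

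The symbols with the 12 highest and the 12 lowest ratios of the positive nuclei of cluster 4 to those of cluster 5 were named. A 0 was set to 3 UMIs for this ranking, so a gene with 0 UMIs can rank behind one with 1 UMI. *slc43a2a*, with 0 against 61, was thus at 0.0422 and was not named. *abca12*, a lipid transporter gene of the skin barrier, had 70 UMIs against 1 in the positive nuclei of cluster 5, a ratio of 60.0 (10.4–2404). *krt4*, a keratin gene of mucosal epithelia, had 364 against 12, a ratio of 26.0 (14.7–50.8), and was present in 78.1% against 11.5% of the nuclei. *elf3*, the gene of an epithelial ETS factor, had 64 against 3, a ratio of 18.3 (5.98–91.0). *elovl7a*, a fatty acid elongase gene, had 38 against 1, and *lss*, the lanosterol synthase gene, 37 against 1. The others were *lmo7a*, *RND2* (1 of many), *usp43a*, *rhpn2*, *homer2*, *ponzr2* and *rab25a*, with ratios from 19.7 to 41.1. At the other end, *dbn1*, which codes for the actin binder drebrin, had 1 UMI in the positive nuclei of cluster 4 against 97, a ratio of 0.00884 (0.000222–0.0504). *krt18b*, a keratin gene of simple epithelia, had 1 against 66, and *ncf4* had 1 against 31. *NCKAP1L*, an actin regulator gene of blood cells, had 1 against 23, and *mrc1b* (1 of many) 3 against 68. The others at this end were *pea15*, *arhgap20*, *gad1b*, *trip10a*, *akt3b*, *GNAZ* and *SMOX*, with ratios from 0.0186 to 0.0390.

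The summed UMIs of 6 macrophage genes (*stab1*, *mrc1b* (1 of many), *csf1ra*, *spi1b*, *ncf4* and *slc43a2a*, chosen after their values were seen) were set beside those of *cd74a*. Chosen in this way, the 6 genes give a description and no test. The part of free RNA in the *cd74a* counts was not tested. Cluster 4 had 10.6 UMIs of the 6 genes (6.55–16.2) per 100 UMIs of *cd74a*, and cluster 5 had 339 (283–408). Cluster 8 had 29.5 (16.4–50.6), cluster 2 had 64.4 (41.7–98.5) and the Mesenchymal cluster 178 (114–284). In cluster 4, 10 of the 64 positive nuclei held at least 1 UMI of the 6 genes, against 6 of the 65 negative ones. In cluster 5 they were 58 of the 61 positive nuclei, against 35 of the 37 negative ones. At least 1 UMI of the envelope genes *evpla*, *evplb* and *ppl*, likewise chosen after their values were seen, was in 59 of the 64 positive nuclei of cluster 4, against 51 of its 65 negative nuclei. It was in 9 of the 61 positive nuclei of cluster 5. Most positive and most negative nuclei of cluster 4 thus held these envelope genes, and few of either held the 6 macrophage genes.

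Inside cluster 4, positive and negative nuclei were compared to see which other genes went with *cd74a*. Of 3128 features with at least 10 UMIs in the pair, 13.5% were at least 2-fold higher in the positive nuclei, while 12.1% were lower by as much, with a median log2 ratio of −0.07. Of 10 measured proteases and sorting genes 5 were higher and 0 lower, with a median of 1.06. All 5 reached the minimum of 10 UMIs through the positive nuclei alone, so their count is a description and no test. The 4 members with the most UMIs were not among the 5. *march8* had a ratio of 0.832 (0.584–1.19), *cltca* (1 of many) one of 1.02 (0.594–1.78), *SPPL2A* one of 1.09 (0.558–2.18) and *lgmn* one of 1.41 (0.664–3.15). *ifi30* had 16 UMIs in the positive nuclei against 0 in the negative ones. With 3 UMIs set in place of the 0 this is 4.31-fold higher, and the interval of the ratio starts at 3.11. *ctsba* had 14 UMIs, in 7.81% of the positive nuclei, against 2, a ratio of 5.65 (1.30–51.2), *ctsz* (1 of many) 11 against 2, a ratio of 4.44 (0.969–41.2), and *ctsl.1* (1 of many) 13 against 3, a ratio of 3.50 (0.961–19.1). *lamp1b* had 10 against 1, a ratio of 8.07 (1.15–350). The list as a whole had a summed ratio of 1.29 (1.06–1.59), and of 1.21 (0.873–1.67) with each nucleus thinned to 500 UMIs.

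Of 6 measured interferon genes 3 were at least 2-fold higher in the positive nuclei and 0 lower. *irf1b* had 36 UMIs against 8, a ratio of 3.63 (1.66–9.05), *ifngr1l* 17 against 6, a ratio of 2.29 (0.860–7.08), and *IRF2*, another interferon regulatory factor gene, 9 against 2, a ratio of 3.63 (0.752–34.5). *ifngr1*, high in cluster 4 as a whole, was at 0.858 (0.407–1.81) between its positive and negative nuclei. The summed interferon list had a ratio of 1.68 (1.23–2.30), and of 1.83 (1.12–3.06) at 500 UMIs. Of 6 class I genes 1 was higher and 1 lower. The barrier list had a summed ratio of 1.2 (1.08–1.33), also 1.2 (1.02–1.41) at 500 UMIs, and the macrophage list one of 0.923 (0.571–1.50). The epithelium list had a summed ratio of 1.35 (1.19–1.53) at 500 UMIs. Its members differed: *krt4* had 364 UMIs against 111, a ratio of 2.65 (2.13–3.30), and *krt8* one of 2.56 (1.48–4.62). The most counted, *krt5*, was at 0.993 (0.869–1.14), and *esrp1* was lower, at 0.423 (0.267–0.660). *mpx* had 70 UMIs against 50, a ratio of 1.13 (0.775–1.66). The dissociation stress list, which holds early response genes, had a summed ratio of 0.901 (0.730–1.11), and of 0.630 (0.443–0.891) at 500 UMIs, and its part in these differences was not tested.

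The symbols with the highest ratios of positive to negative nuclei in cluster 4 had few UMIs. *soul2*, of a haem-binding family, had 23 UMIs against 2, a ratio of 9.28 (2.29–81.2), and *tspan36*, a tetraspanin gene, 20 against 2, a ratio of 8.07 (1.96–71.2). *mdkb*, a midkine growth factor gene, had 18 against 2, a ratio of 7.27 (1.74–64.6), and *grb7*, a signalling adaptor gene, 23 against 3, a ratio of 6.19 (1.87–32.2). *slc12a7a*, a potassium chloride cotransporter gene, *bace2*, an aspartic protease gene, *sqstm1*, the gene of the autophagy receptor p62, and *rpl7*, a ribosomal protein gene, had ratios from 3.83 to 5.38. All 8 had the higher level in the positive nuclei in both suffix sets, with 3 to 9 UMIs of each in the positive nuclei of suffix 2. They were chosen by their ratio over both suffix sets together, so the shared direction is no separate check. *sqstm1* was at 5.80 in suffix 1 and at 1.07 in suffix 2.

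Inside cluster 5 the positive and negative nuclei differed in other lists. Of 2206 features, 15.7% were at least 2-fold higher in the 61 positive nuclei, while 10.9% were lower by as much. Of 8 measured proteases and sorting genes 1 was higher and 0 lower, with *CTSS* (1 of many) at 1.76 (0.798–4.39) and *ctsba* at 0.599 (0.328–1.12). Of 6 interferon genes 1 was higher and 0 lower, and *irf1b* was at 0.826 (0.221–3.75). The macrophage list had a summed ratio of 0.882 (0.744–1.05), with *ncf4* at 0.458 (0.266–0.792) and *mrc1b* (1 of many) at 1.17 (0.726–1.95). *mitfa* had 29 UMIs in the positive and 23 in the negative nuclei, a ratio of 0.521 (0.291–0.943). It was present in 34.4% and 32.4% of these nuclei. The barrier list was higher in the positive nuclei, with 4 of 7 measured members at least 2-fold higher and a summed ratio of 2.48 (1.65–3.84), and the mesenchyme list had one of 3.16 (1.68–6.56). Positive nuclei of cluster 5 were also the deeper ones, as given above, and the part of depth in these ratios was not tested. The difference between the 2 clusters in these ratios was not tested either.

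Symbols whose levels followed *cd74a* over the 12 clusters were found by Pearson's r on log2(CPM + 10), among 4194 symbols with at least 50 UMIs. The clusters share libraries and differ in depth, and r is a description over 12 points. *slc4a2b*, an anion exchanger gene, had the highest r, 0.93, with 205 CPM in cluster 4, 241 CPM in cluster 5 and 80.9 CPM in cluster 8, against 17.4 CPM in cluster 0. *fcho2*, an endocytosis gene, followed with 0.90, *efl1*, a ribosome maturation gene, with 0.87, and *dram2b*, a lysosomal membrane gene, with 0.86. *pde4bb*, a phosphodiesterase gene, had 0.84. *lrmda*, a gene of melanocyte differentiation in humans, also had 0.84, and its 3206 CPM in cluster 5 stood far above the 579 CPM in cluster 4. *pag1*, *tspan36*, *tmem106a* and *plekhm1* had from 0.81 to 0.84. *tspan36* was thus named both here and inside cluster 4, with 161 CPM in cluster 4 and 383 CPM in cluster 5, against 23.9 CPM in cluster 0.

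Clusters were also rebuilt without *cd74a* (Leiden clustering of the kept nuclei, 16 clusters). Each rebuilt cluster was matched to the deposited cluster that gave it most nuclei, and 73.6% of all kept nuclei fell in their own cluster. Several clusters were divided: the largest piece held 146 of the 234 nuclei of cluster 0 and 158 of the 222 of cluster 1. Of the 129 nuclei of cluster 4, 122 were in 1 rebuilt cluster, and these 122 had 1617 CPM of *cd74a*. Together with 27 nuclei of Epithelial cluster 3, which had 224 CPM, and a few others, that rebuilt cluster had 1349 CPM. Of the 98 nuclei of cluster 5, 75 were in 1 rebuilt cluster and had 1175 CPM, with at most 5 UMIs in a nucleus. Another 14 joined 19 nuclei of cluster 8, and these had 2265 CPM and 1602 CPM. The remaining nuclei of cluster 8 were mainly in 2 rebuilt clusters, where they had 552 CPM in 17 nuclei and 576 CPM in 10. The nucleus with 36 UMIs was in a rebuilt cluster that held 114 nuclei of cluster 3 and 2 of cluster 5.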

How the data were processed

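The members and gene lists were chosen with earlier results of these data known. The deposited values are whole-number UMI counts for every pair of feature and barcode. The submitters' processing notes name Cell Ranger 3.1.0. Nuclei were prepared with the 10x V3 kit per the labels' protocols, for a target of 3000 per jaw. No genome build is named in the labels or files used, and coordinates are left out. The authors deposited cluster, class and kept mark per barcode. Tested on the 1381 barcodes, the kept mark equals more than 300 and fewer than 2500 genes. The authors' deposited score columns (a rank score and embedding positions) were not used for results.

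UMIs of the kept nuclei were summed and scaled to CPM, with exact Poisson, Clopper-Pearson and exact conditional 95% intervals. PCR and lysis are outside them. With 1 pooled sample no p-value was computed. In gene comparisons *cd74a* was left out of genes and totals. A feature counted as measured from 10 UMIs over both sides and as higher or lower from 2-fold, where a 0 was set to 3 UMIs. List medians use log2 ratios with 0.5 UMI added. The 22 lists (14 of cell type markers, 8 of pathways) were matched by symbol, with or without a paralogue suffix, and summed lists include features below 10 UMIs. Features called 1 of many are 1 of several near copies among which reads may be split.

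Named symbols were the 12 highest and 12 lowest ratios between the positive sets, with at least 20 UMIs and a UMI in 25% of the higher set. Within cluster 4 they were the 8 highest, with at least 15 UMIs and 20% of the higher set. These ratios were ranked with a 0 set to 3 UMIs. By likeness they were the 10 highest r, and by list up to 4 members with the most UMIs in the set described. Every other list member named was chosen after its values were seen. Thinning drew 500 UMIs per nucleus once with seed 1. Alternatives were 800 UMIs, TMM factors (edgeR 4.0.16, R 4.3.3), means over nuclei, depth limits, other minimums, suffix sets, Scrublet at an expected rate of 0.06, which called 1 nucleus of the 1296 and so gives no usable doublet filter, and Leiden clusters (resolution 1.0, 2000 variable genes, 30 components, 15 neighbours). Tools were scanpy 1.11.5, leidenalg 0.10.2, scipy 1.17.1, numpy 2.4.6, pandas 2.3.3 and matplotlib 3.10.9 on Python 3.11.15. The code for ratios and intervals was run on simulated Poisson counts. Such counts leave out the uneven spread of UMIs among nuclei, so they do not show how the intervals behave under it.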

Additional observations from a re-analysis of the deposited data

Results flagged for a closer look

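*cd74a* was also present in barcodes that the authors did not keep and that enter no comparison above. These 85 barcodes held 239 UMIs of *cd74a*, a level of 354 CPM (310–401), and 36 of them were positive. Most of it, 228 UMIs, lay in the 41 barcodes with 2500 genes or more, where the highest held 56 UMIs and the level was 346 CPM (303–394). The 44 barcodes with 300 genes or fewer had 11 UMIs, or 617 CPM (308–1104). None of the 85 barcodes carries a class or cluster, and there are no control samples to set them against.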

How the results depend on the processing

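Of 240 values under alternatives, over 39 results, 191 stayed within the limit set for their result and 49 moved beyond it. Some alternatives change few counts: Scrublet takes out 1 nucleus, and ribosomal protein features hold 1.72% of UMIs. The 191 is therefore no measure of how stable the results are. For levels, shares and ratios the limit was the counting interval of the main value. For counts of features, list medians and numbers of shared genes it was a fixed margin. Cluster 4 had 1832 CPM with TMM factors and 1349 CPM in the clusters rebuilt without *cd74a*, where its ratio to the other epithelium was 5.55. Cluster 5 had 1330 CPM in suffix 1, 2209 CPM in suffix 2 and 1089 CPM as rebuilt, with ratios to the rest of 3.01, 7.12 and 2.52. Alternatives chosen after seeing the data gave cluster 5 1315 CPM and a ratio of 3.45 without its highest nucleus, and 2414 CPM and 6.51 without nuclei holding any of the 6 macrophage genes, which leaves 5 nuclei. Its equal-depth share was 60.0% at 800 UMIs and 62.2% unthinned. The barrier ratio of the positive sets was 5.80 with at least 2 *cd74a* UMIs, 6.12 in suffix 1, 3.75 in suffix 2 and 6.06 as a mean over nuclei. The macrophage ratio was 0.0380 in suffix 2. Among the positive sets 944 features were at least 2-fold higher and 879 lower, against 453 and 399 with at least 20 UMIs and 186 and 150 with at least 40, where fewer features were compared. Of the 24 named genes 24 were shared at 10 UMIs and 15 at 40, and of the 10 most like *cd74a* from 4 to 8 were shared. The direction between clusters 4 and 5 turned: cluster 4 stood above cluster 5 in 3 of the 11 alternative orders, and the ratio of cluster 4 to cluster 5 was 0.943 in all, 1.26 in suffix 1 and 1.22 without the highest nucleus of cluster 5. Barcodes that were not kept carry no class, so using them changed no value. The cause of these shifts was not tested. No paired analysis was possible because the jaws share 1 matrix without a map to barcodes.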
